A study of Homo sapiens with 8 samples.

Results

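The genes described here are the subunits of the transcription factor NF-kappaB, several of its inhibitors, and LTB, the gene for the cytokine lymphotoxin beta. Of 10 genes listed by name (NFKB1, NFKB2, REL, RELA, RELB, NFKBIA, NFKBIE, TNFAIP3, BIRC3 and LTB), 9 had a row whose platform annotation held exactly 1 gene symbol, out of 18495 rows in all; BIRC3 was not analysed here. Each of the 9 had a single row. They were compared between cells in which ESRP1 and ESRP2 were knocked down together with small interfering RNAs (siESRP, 4 arrays) and cells that got a control RNA aimed at green fluorescent protein (siGFP, 4 arrays). Both groups were PNT2 cells, a human cell line from immortalized prostate epithelium, without any added cytokine or other agent named in the labels, and expression was read on Affymetrix exon arrays with 1 value per gene. ESRP1 and ESRP2 encode epithelial regulators of RNA splicing. All arrays came from 1 cell line, and the labels do not say whether the samples of a group were separate cultures. A p-value here therefore sets the difference between groups only against the spread of these samples, and that spread may be technical.

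NF-kappaB is a family of dimers built from the Rel-domain proteins p50 (from NFKB1), p52 (from NFKB2), p65 (RELA), RELB and c-Rel (REL). In resting cells the dimers are held in the cytoplasm by IkappaB proteins such as those from NFKBIA and NFKBIE. In the canonical pathway, kinases downstream of cytokine receptors mark IkappaB for destruction and release dimers that hold p65 or c-Rel. In the noncanonical pathway, receptors such as the lymphotoxin beta receptor lead to processing of the NFKB2 precursor and release of p52 and RELB. Many members are themselves NF-kappaB targets, among them NFKBIA and TNFAIP3, which shut the signal off, and LTB, whose protein forms a membrane ligand together with lymphotoxin alpha.

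Because several members are known to be induced by NF-kappaB, the promoter windows of RefSeq (GRCh38.p14, 250 bases before to 50 after a gene's start) are shown in full for LTB and the canonical subunits, which include members that fell, one that rose, and one without a match. LTB had the largest change of the members, NFKB1 fell and REL rose, and each has a match to a kappaB-type motif on one strand or the other. The motif reads, 5′ to 3′, GGG, then any pair of bases, then TTT and CC, and both strands were searched. RELA fell and has none in the window shown, nor in its second window. Capitals mark the match, the strand is that of the gene, and the windows are those at chr6:31582376-31582675, minus strand for LTB, chr4:102501109-102501408, plus strand for NFKB1, chr2:60881324-60881623, plus strand for REL and chr11:65663808-65664107, minus strand for RELA.
LTB: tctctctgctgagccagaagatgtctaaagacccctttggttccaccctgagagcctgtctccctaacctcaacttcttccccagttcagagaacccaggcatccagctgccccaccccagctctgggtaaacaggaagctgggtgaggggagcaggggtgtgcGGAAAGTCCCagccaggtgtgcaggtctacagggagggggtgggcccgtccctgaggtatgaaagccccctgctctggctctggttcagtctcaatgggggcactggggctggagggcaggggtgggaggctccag
NFKB1: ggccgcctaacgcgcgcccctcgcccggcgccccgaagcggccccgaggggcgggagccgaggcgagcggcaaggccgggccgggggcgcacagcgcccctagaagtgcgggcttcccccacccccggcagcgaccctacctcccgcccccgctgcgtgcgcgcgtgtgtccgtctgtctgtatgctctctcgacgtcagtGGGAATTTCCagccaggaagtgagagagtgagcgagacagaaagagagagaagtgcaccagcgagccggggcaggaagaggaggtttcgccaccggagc
REL: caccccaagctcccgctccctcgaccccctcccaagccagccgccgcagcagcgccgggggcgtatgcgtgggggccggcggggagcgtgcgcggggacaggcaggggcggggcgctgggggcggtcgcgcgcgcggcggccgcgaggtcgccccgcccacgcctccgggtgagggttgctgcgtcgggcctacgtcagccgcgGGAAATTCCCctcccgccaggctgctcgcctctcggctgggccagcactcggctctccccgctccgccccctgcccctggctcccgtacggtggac
RELA: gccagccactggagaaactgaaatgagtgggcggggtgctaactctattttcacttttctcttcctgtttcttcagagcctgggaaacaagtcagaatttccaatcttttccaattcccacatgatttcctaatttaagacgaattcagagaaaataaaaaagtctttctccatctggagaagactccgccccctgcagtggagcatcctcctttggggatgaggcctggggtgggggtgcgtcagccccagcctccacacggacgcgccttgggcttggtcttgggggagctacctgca
The match began 86 bases before the start in LTB, 49 bases before it in NFKB1 and 46 bases before it in REL. The remaining members with a match are shown by the match and 10 bases on each side. TNFAIP3 holds a pair of matches, at 67 and 55 bases before its start; the match of NFKBIA lies 81 bases before its start, and that of NFKB2 lies 78 bases before the start in the window shown, and another of its windows has one 21 bases before the start.
NFKB2 (within chr10:102394328-102394627, plus strand): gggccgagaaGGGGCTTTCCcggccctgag
NFKBIA (within chr14:35404700-35404999, minus strand): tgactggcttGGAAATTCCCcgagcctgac
TNFAIP3 (within chr6:137867009-137867308, plus strand): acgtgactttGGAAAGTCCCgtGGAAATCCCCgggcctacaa

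Of the 9 measured members, 7 had a promoter window in the table, and 6 of these 7 (85.7%) held the motif in at least 1 of their windows, against 314 of 11418 measured genes with a window (2.75%). Counted by window, 671 of all 35116 (1.91%) held it. The broader kappaB consensus, which overlaps this motif, was also found in 6 of the 7, against 1021 of 11418 measured genes with a window (8.94%). RELB and NFKBIE had no window in that table. Across all measured genes with a match, 41 of 314 (13.1%) were called lower and 42 of 314 (13.4%) were called higher in siESRP cells. Of the 11418 measured genes with a window, 1155 were called lower and 1335 higher. Over all rows of the table, 9.31% were called lower and 10.9% higher. The letters were present in members that fell and in REL, which rose. A match is a description of the sequence and was not tested as a binding site. Several members are known to be induced by NF-kappaB, so their share describes the list and is no result of the comparison. Where a gene had several windows, the first with a match, if any, is shown. The other window of NFKB1 and another window of NFKB2 held none.

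Most members were lower in siESRP cells. By limma's adjusted p below 0.05, with adjustment over all 18495 rows, 7 of the 9 members fell (NFKB1, NFKB2, RELA, RELB, NFKBIE, TNFAIP3 and LTB), 1 rose (REL) and 1 did not pass (NFKBIA). Of all rows, 9.31% were called lower and 10.9% higher. Among the rows bright enough to compare with the members, meaning a higher group mean of at least 100 and all 8 values above 0, 13.4% were called lower and 15% higher. The median log2 difference over the 9 members was −0.37, and over all rows it was −0.02. Log2 differences are siESRP minus siGFP on the log2(value + 1) scale, and intensities are quantile normalized. The separation of the groups moved with the scaling. With quantile normalization NFKBIA alone overlapped, with arrays as deposited NFKB1, RELA and TNFAIP3 overlapped and NFKBIA did not, and with a common median REL and TNFAIP3 overlapped. Groups did not overlap in 24.6% of all rows after quantile normalization. In bulk RNA, fewer expressing cells and less RNA per cell cannot be told apart.

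**Figure D1:**
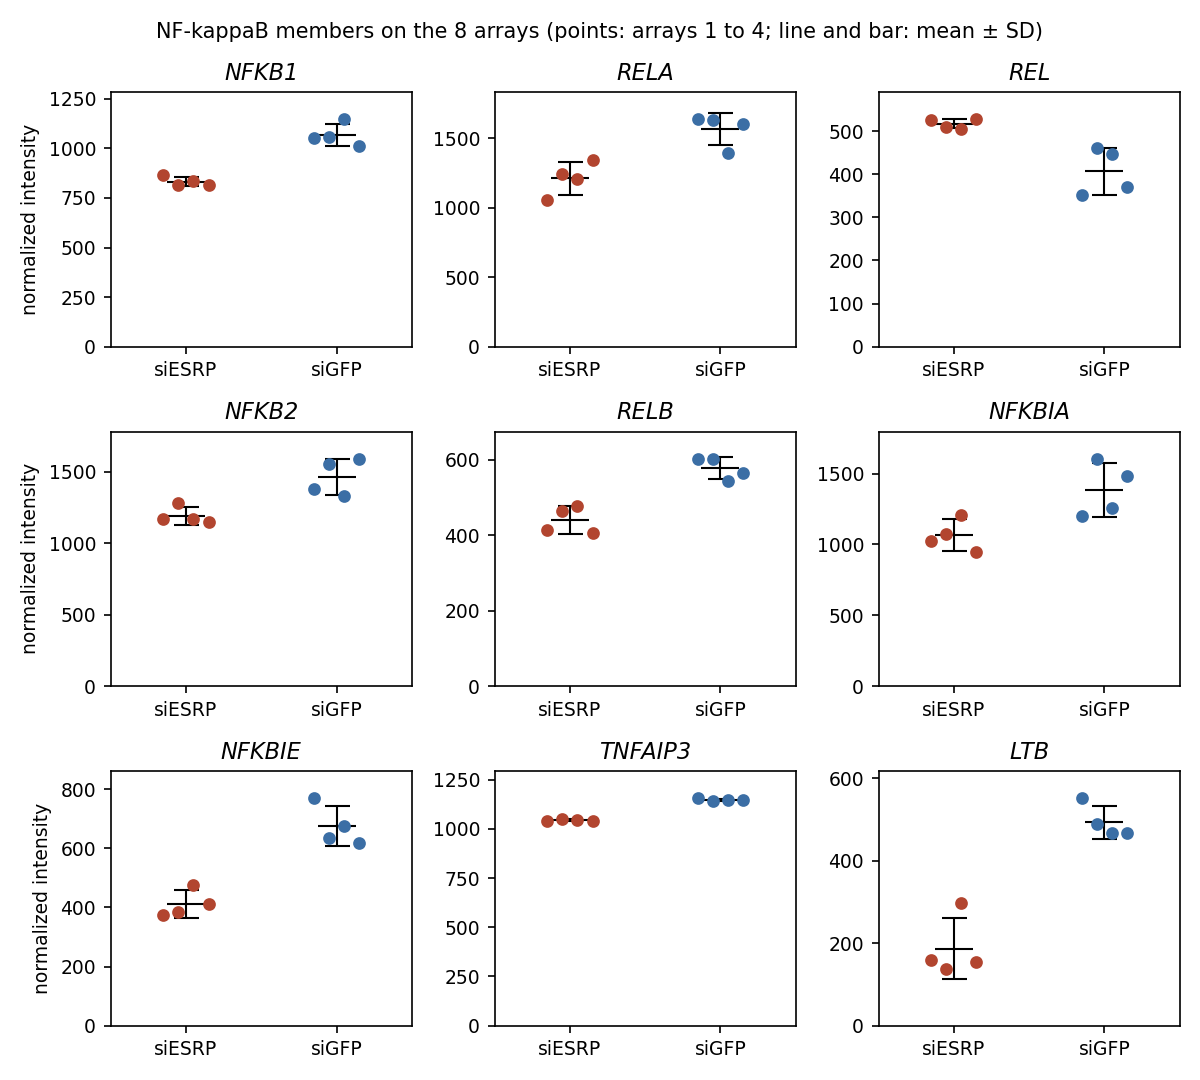
Normalized intensity (vertical axis, starting at 0) of each measured member on the 4 siESRP arrays (red, left) and the 4 siGFP arrays (blue, right), with the mean and SD in black. At this normalization the groups do not overlap in 8 of the 9 members, as in 24.6% of all rows; REL is the member whose siESRP values lie above, and NFKBIA is the one whose groups overlap.

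Among the subunits of the canonical dimers, NFKB1, the source of p50, had intensities of 865, 816, 835 and 814 on the siESRP arrays, against 1055, 1057, 1147 and 1013 on the siGFP arrays. Every siESRP value lay below every siGFP value. The means were 833 ± 23.8 and 1068 ± 56.4 (SD, n = 4 each), a 1.28-fold lower level (log2 difference −0.36 ± 0.05 SE, limma adjusted p = 0.00321). RELA, which encodes p65, the main transactivating subunit, had 1058, 1245, 1204 and 1342 in siESRP, against 1638, 1629.8, 1396 and 1601 in siGFP. The groups were apart by little, with siESRP replicate 4 and siGFP replicate 3 nearest to each other. RELA fell 1.29-fold (log2 difference −0.37 ± 0.09 SE, limma adjusted p = 0.0255). REL, which encodes c-Rel, a subunit best known from lymphocytes, had 525, 510.3, 505 and 527 in siESRP, against 351, 460.1, 447 and 371 in siGFP. Its siESRP values were close together and above all siGFP values, which ranged more widely. REL rose 1.28-fold (log2 difference 0.35 ± 0.10 SE, limma adjusted p = 0.0403).

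These calls did not hold equally well. NFKB1 passed under 14 of 15 alternative settings and missed only with arrays as deposited, without quantile normalization, where its groups overlapped (adjusted p = 0.145). RELA passed under 8 of 15, and its call ended with arrays as deposited, with the replicate number as a block (adjusted p = 0.0780), and without any 1 of siESRP replicates 2 and 3 or siGFP replicates 1, 2 and 4, with an adjusted p of at most 0.0996. REL passed under 5 of 15, and its adjusted p went up to 0.151. REL lost its call with arrays as deposited, with arrays scaled to a common median, with the asinh transform, with the block, and without any 1 array except siGFP replicates 2 and 3. Its difference stayed above 0 in all 15, from 0.28 to 0.41.

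The noncanonical subunits were also lower. NFKB2, whose precursor p100 both restrains RELB and yields p52, had 1166, 1282, 1167 and 1150.5 in siESRP, against 1380.5, 1552, 1333 and 1591 in siGFP. All siESRP values were below all siGFP values, and siESRP replicate 2 was higher than the other siESRP arrays. NFKB2 fell 1.23-fold (log2 difference −0.29 ± 0.07 SE, limma adjusted p = 0.0298). RELB, the partner of p52, had 413.5, 464, 479 and 406 in siESRP, against 602, 603, 543 and 566 in siGFP, with no overlap. RELB fell 1.31-fold (log2 difference −0.39 ± 0.07 SE, limma adjusted p = 0.00888). RELB passed under 13 of 15 alternatives, including all 8 that left out 1 array, and missed with arrays as deposited (adjusted p = 0.0539) and with the block (0.0533). NFKB2 passed under 9 of 15 and lost its call with the block (adjusted p = 0.0657) and without any 1 of siESRP replicates 1, 3 and 4 or siGFP replicates 2 and 4, with an adjusted p of at most 0.0788.

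**Figure D2:**
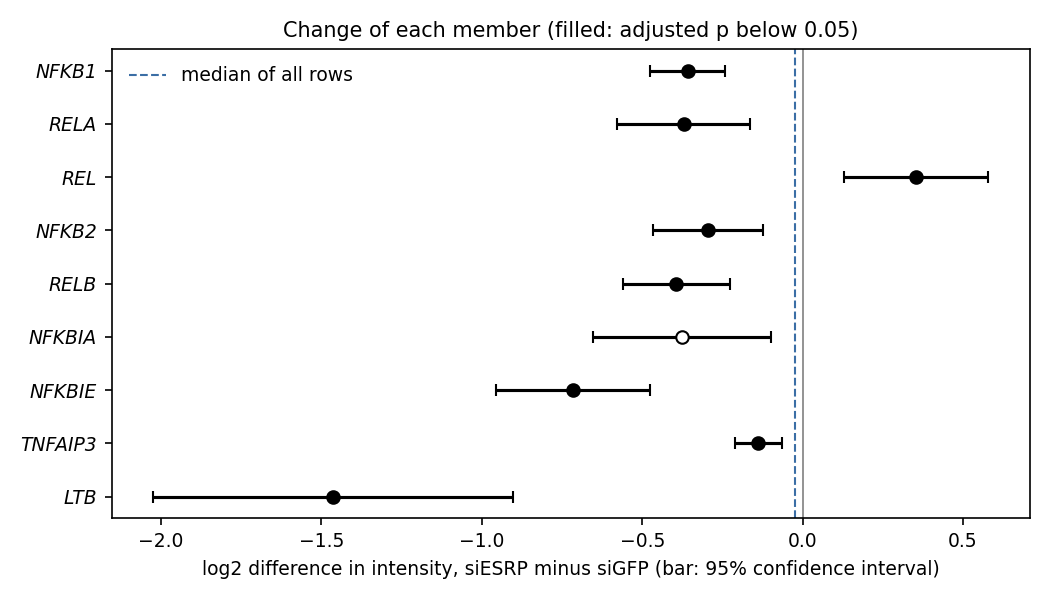
Log2 difference in intensity (siESRP minus siGFP, horizontal axis) of each member, with its 95% confidence interval from limma; filled points have an adjusted p below 0.05 and the dashed line is the median of all rows at −0.02. NFKB1, RELA, NFKB2, RELB and NFKBIA lie between −0.39 and −0.29, NFKBIE is at −0.72, LTB at −1.46 and REL at 0.35.

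The log2 differences of the 4 subunits that fell lay between −0.39 and −0.29, and ratios between them were tested for unequal change. Within each array, the log2 ratio of RELB over RELA averaged −1.46 ± 0.18 in siESRP and −1.43 ± 0.06 in siGFP (SD, n = 4 each), a difference of −0.02 (exact two-sided permutation p = 0.971). The ratio of NFKB1 over RELA differed by 0.01 (exact permutation p = 0.83), and that of NFKB2 over RELB by 0.10 (exact permutation p = 0.286). When 1 array at a time was left out, these differences ran from −0.07 to 0.07 for RELB over RELA, from −0.07 to 0.10 for NFKB1 over RELA and from 0.05 to 0.16 for NFKB2 over RELB. A p above the threshold does not show that the subunits changed equally.

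Of the 3 inhibitors measured, NFKBIE and TNFAIP3 fell and NFKBIA did not pass. NFKBIE encodes IkappaB epsilon, an inhibitor that retains p65 and c-Rel dimers. It had 373, 383, 477 and 410.25 in siESRP, against 769.5, 635, 677 and 619 in siGFP, with a wide gap between the groups. The means were 411 ± 46.7 and 675 ± 67.4 (SD, n = 4 each), a 1.64-fold lower level (log2 difference −0.72 ± 0.10 SE, limma adjusted p = 0.00355), and the call held under all 15 alternatives.

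NFKBIA, which encodes IkappaB alpha, the fast-acting feedback inhibitor, had 1026, 1076.5, 1211 and 947 in siESRP, against 1199, 1604, 1257 and 1486 in siGFP. Here the groups overlapped, since siESRP replicate 3 was above siGFP replicate 1. The log2 difference was −0.38 ± 0.12 SE, about as large as that of RELA, with a 95% interval from −0.65 to −0.10, but it did not pass (limma adjusted p = 0.0659). It passed under 5 of 15 alternatives, namely arrays as deposited (adjusted p = 0.0332), a common median (0.0248), the dimmest rows left out (0.0384), trended and robust eBayes (0.0300) and without siESRP replicate 3 (0.0483). The log2 ratio of NFKBIE over NFKBIA was −1.37 ± 0.13 in siESRP and −1.03 ± 0.33 in siGFP (SD, n = 4 each), and this difference of −0.34 did not pass (exact permutation p = 0.114).

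TNFAIP3 encodes A20, a ubiquitin-editing enzyme that stops signalling upstream of the IkappaB kinases. It had 1039.6, 1050.5, 1043 and 1039.8 in siESRP, against 1155, 1140.2, 1149 and 1147 in siGFP. The change was the smallest of the members, 1.10-fold lower (log2 difference −0.14 ± 0.03 SE, limma adjusted p = 0.0197). Its replicates were unusually close, with a coefficient of variation of 0.490% in siESRP and 0.524% in siGFP, where the median over bright rows was 9.19%. In the intensities as deposited, the values ran from 959 to 1112 in siESRP and from 961 to 1297 in siGFP and overlapped (limma adjusted p = 0.466). With arrays scaled to a common median they overlapped too (adjusted p = 0.152). It passed under 7 of 15 alternatives, and the call also ended with the dimmest rows left out (adjusted p = 0.141), the asinh transform (0.126), trended and robust eBayes (0.108), the block (0.114), and without siESRP replicate 1 (0.0614) or 4 (0.0517).

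LTB had the largest change. Lymphotoxin beta is a membrane cytokine of the TNF family, best known from lymphocytes, and signals through the lymphotoxin beta receptor to the noncanonical pathway. LTB had 160.1, 137, 296 and 154 in siESRP, against 551, 489.6, 466 and 466 in siGFP. All siESRP values were far below the siGFP values, and siESRP replicate 3 stood above the other siESRP arrays. The means were 187 ± 73.7 and 493 ± 40.1 (SD, n = 4 each), a 2.76-fold lower level (log2 difference −1.46 ± 0.24 SE, 95% interval from −2.02 to −0.90, limma adjusted p = 0.00611). Among 9447 bright genes, LTB had rank 11 from the lowest log2 difference, and NFKBIE rank 173. Over all 18495 rows, dim ones included, LTB had rank 144 and NFKBIE rank 578. Of the rows called lower, 30, LTB among them, were at least as low as LTB. The LTB call held under all 15 alternatives, and without siESRP replicate 3 the log2 difference was −1.74. The log2 ratio of LTB over NFKBIA was −2.57 ± 0.39 in siESRP and −1.48 ± 0.27 in siGFP (SD, n = 4 each). The difference was −1.09 (exact permutation p = 0.0286, two-sided), and no smaller p is possible with 4 arrays a group. It was 0.143 after Benjamini-Hochberg adjustment over the 5 ratios computed, so none of the 5 passed. A single ratio at the smallest possible p could not pass after this adjustment.

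The measured neighbours of LTB did not pass the test. LTB lies in the MHC class III region beside LTA and TNF, which encode lymphotoxin alpha and tumour necrosis factor. Of 7 measured genes of that region, limma called 0 at adjusted p below 0.05 and 1 (LST1) had an unadjusted p below 0.05. Of all rows, 9.31% were called lower and 10.9% higher, and of bright rows 13.4% and 15%. A count of 0 of 7 therefore does not show that these genes were unchanged. Of the 7, 2 had both means under 50. LTA averaged 97.0 ± 30.4 in siESRP and 114 ± 39.1 in siGFP, and TNF 65.9 ± 11.8 and 61.0 ± 20.2 (SD, n = 4 each). The limma adjusted p was 0.688 for LTA and 0.740 for TNF. BAG6, the brightest row of this list, averaged 1284 ± 46.2 in siESRP and 1387 ± 83.9 in siGFP (adjusted p = 0.235). Whether LTB differed from each neighbour was not tested.

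The genes with a profile most like that of LTB, over the 8 arrays and among 9438 bright genes outside the members, were C4BPB, ELOB and SH3RF2. The measure was the root mean square difference between log2 profiles, each taken relative to its own siGFP mean, and it was 0.19 for C4BPB, 0.28 for ELOB and 0.29 for SH3RF2. C4BPB, which encodes the beta chain of a complement regulator, had 180.1, 161, 246 and 198 in siESRP, against 609, 549.5, 490.4 and 436 in siGFP. Like LTB, C4BPB and ELOB were highest of the siESRP arrays in replicate 3, while SH3RF2 was highest in replicate 4. These genes were picked for their likeness to LTB on these same arrays, so a shared high array is no separate result.

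Lymphocytes are a known source of LTB, so leukocyte markers were examined, and most were dim in both groups. Of 13 measured leukocyte markers, 9 had both means under 50, among them PTPRC, the pan-leukocyte surface phosphatase, at 12.8 ± 4.16 in siESRP and 10.7 ± 1.88 in siGFP. The T-cell receptor subunit CD3E averaged 12.9 ± 6.08 in siESRP and 6.97 ± 5.13 in siGFP. The summed level of the 13 lay between 475 and 614.5 in siESRP and between 623 and 667 in siGFP. CSF1R, a receptor of macrophages, was the single marker that passed, at 80.9 ± 7.22 in siESRP and 154 ± 23.6 in siGFP (limma adjusted p = 0.00323). This made 7.69% of the markers called lower, beside 9.31% of all rows and 13.4% of bright rows. At an unadjusted limma p below 0.05, 3 markers were lower and 0 higher. CSF1R is part of the summed level, and the sum without it is not given. Whether these marker levels bear on the LTB result was not tested. Of 6 measured epithelial markers, 3 (CDH1, KRT18 and KRT19) were higher in siESRP, beside 15% of bright rows, and 0 lower (limma; 0 lower also at an unadjusted p below 0.05). CDH1 held under all 15 alternatives, KRT18 lost its call with arrays as deposited (adjusted p = 0.107), and KRT19 lost it with arrays as deposited and with the block (at most 0.182). The summed level of the 6 lay between 24940 and 25762 in siESRP and between 21873 and 22898 in siGFP. EPCAM, an epithelial surface protein, averaged 3120.0 ± 145 in siESRP and 3386 ± 328 in siGFP (adjusted p = 0.370). The part of the epithelial shift in the member results was not tested.

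Counting each gene once, 11 of 77 measured pathway genes were lower (14.3%) and 15 were higher (19.5%) in siESRP, and 51 did not pass. Of all rows, 9.31% were lower and 10.9% higher, and of bright rows 13.4% were lower and 15% higher. Both means were under 50 in 8 of the 77 genes, and others, such as TNF and IL1A, were under the bright limit of 100. Neither background therefore matches the list exactly. The share of pathway genes called lower was near that of bright rows and above that of all rows. The median log2 difference of the 77 was −0.06. Of these 26 calls, 10 held under all 15 alternatives and all 26 kept their direction in each.

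**Figure D3:**
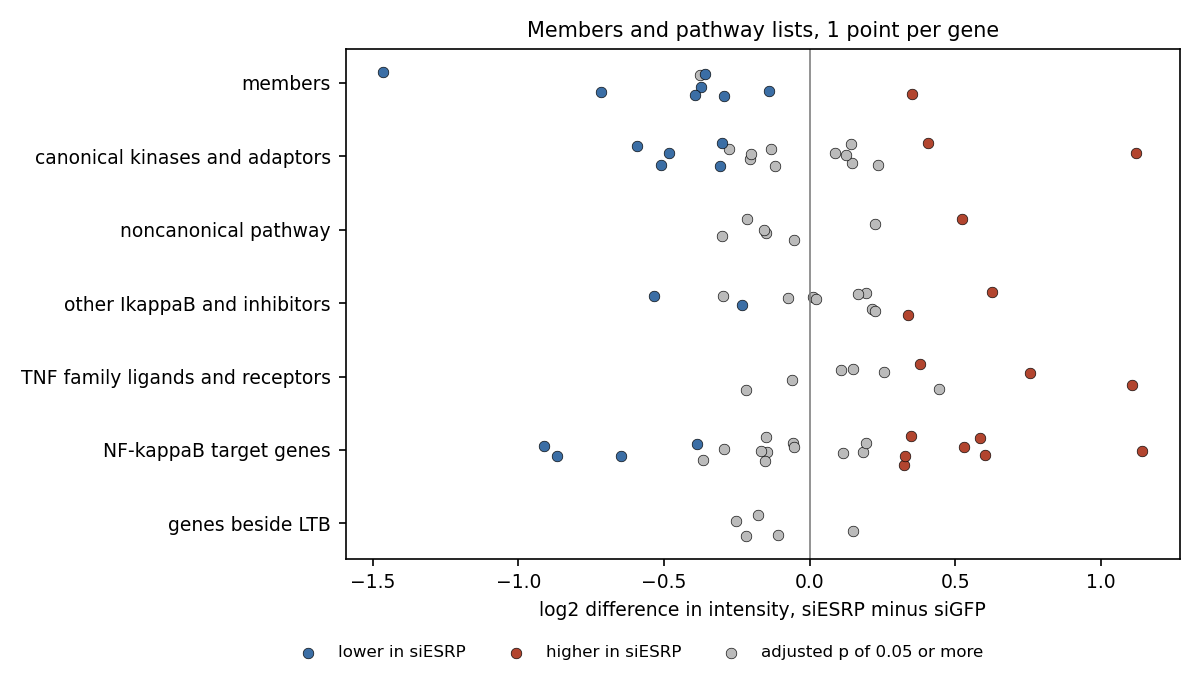
Log2 difference in intensity (siESRP minus siGFP, horizontal axis) for the members and for each pathway list, 1 point per gene, blue where called lower, red where called higher and grey otherwise; 8 pathway genes with both means under 50 are left out, and vertical scatter within a row has no meaning. The members lie to the left of 0 except REL, and the other lists spread to both sides. None of the genes beside LTB was called.

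Of 17 measured canonical kinases and adaptors, 5 fell (29.4%) and 2 rose (11.8%), beside 13.4% and 15% of bright rows. TRAF6, the ubiquitin ligase of the interleukin 1 and Toll-like receptor route, averaged 796 ± 38.2 in siESRP and 985 ± 27.4 in siGFP (SD, n = 4 each), 1.24-fold lower (limma adjusted p = 0.00490). IRAK1, the kinase that acts with it, averaged 1226.5 ± 87.4 in siESRP and 1715 ± 122 in siGFP, 1.40-fold lower (adjusted p = 0.00491). TAB1, an activator of the kinase TAK1, averaged 152 ± 17.3 in siESRP and 216 ± 3.83 in siGFP (adjusted p = 0.00692). TRAF5, an adaptor of TNF-type receptors, averaged 99.4 ± 17.7 in siESRP and 45.4 ± 9.86 in siGFP (adjusted p = 0.00727), with its siGFP level near background. The others, named after their values were seen, were TRADD (1.51-fold lower) and SHARPIN (1.23-fold lower), and BCL10 (1.32-fold higher). IRAK1, TAB1 and TRAF5 held under all 15 alternatives. TRAF6 and TRADD missed with arrays as deposited, while SHARPIN passed under 8 of 15 and BCL10 under 7. SHARPIN lost its call without any 1 of siESRP replicates 1 and 4 or siGFP replicates 1, 2 and 4 (adjusted p at most 0.102 over all alternatives), and BCL10 without any 1 of the siESRP arrays or siGFP replicate 4 (at most 0.116). The IkappaB kinase subunits, also named after their values were seen, did not pass: CHUK averaged 1501.5 ± 122 in siESRP and 1365 ± 181 in siGFP (adjusted p = 0.419), IKBKB 358 ± 34.5 and 327 ± 17.7 (0.339), and IKBKG 269 ± 25.4 and 309 ± 16.1 (0.117).

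The receptor for lymphotoxin beta did not pass either. LTBR averaged 1852 ± 142 in siESRP and 2065 ± 138 in siGFP (limma adjusted p = 0.191). Of 8 measured genes of the noncanonical route 1 rose (12.5%, beside 15% of bright rows and 10.9% of all rows) and 0 fell. By limma, 0 were lower at an unadjusted p below 0.05 too. The one that rose was CD40, a TNF-family receptor, at 361 ± 41.8 in siESRP and 251 ± 27.0 in siGFP, 1.44-fold higher (adjusted p = 0.0161; 13 of 15 alternatives, missing with arrays as deposited and with the block).

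Of 13 further inhibitors measured, 2 fell (15.4%) and 2 rose (15.4%), shares near the 13.4% and 15% of bright rows. OTULIN, a deubiquitinase of linear chains, averaged 279.7 ± 33.1 in siESRP and 406 ± 50.8 in siGFP, 1.45-fold lower (limma adjusted p = 0.0182). NFKBIB, which encodes IkappaB beta, averaged 565 ± 36.7 in siESRP and 663 ± 25.2 in siGFP, 1.17-fold lower (adjusted p = 0.0332). BCL3, a nuclear IkappaB-like partner of p50 and p52, averaged 164 ± 12.7 in siESRP and 107 ± 21.9 in siGFP, 1.54-fold higher (adjusted p = 0.0326). TNIP1, an adaptor of A20, averaged 1542 ± 124 in siESRP and 1219.5 ± 94.8 in siGFP, 1.26-fold higher (adjusted p = 0.0247). OTULIN passed under 12 of 15 alternatives, BCL3 and TNIP1 under 8 each and NFKBIB under 6. OTULIN lost its call without siESRP replicate 4 or siGFP replicate 3 (adjusted p at most 0.127 over all alternatives). BCL3 lost it without any 1 of the siESRP arrays or siGFP replicates 3 and 4 (at most 0.0816), and TNIP1 without any 1 of siESRP replicates 3 and 4 or siGFP replicates 2 and 4 (at most 0.290). NFKBIB lost it without any 1 array except siESRP replicate 3 and siGFP replicate 3 (at most 0.180).

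Among 11 TNF-family ligands and receptors, 3 rose (27.3%, beside 15% of bright rows and 10.9% of all rows) and 0 fell. By limma, 0 were lower at an unadjusted p below 0.05 too. Several genes of this list, TNF among them, were under the bright limit. The ligand TNFSF15 averaged 592 ± 84.6 in siESRP and 274 ± 35.7 in siGFP, 2.15-fold higher (adjusted p = 0.00201). TNFRSF10B, a TRAIL receptor that is also a p53 target, averaged 918 ± 96.6 in siESRP and 541 ± 20.6 in siGFP, 1.69-fold higher (adjusted p = 0.00100). Both held under all 15 alternatives. TNFRSF1A, the main TNF receptor, averaged 2015 ± 201 in siESRP and 1549 ± 144 in siGFP, 1.30-fold higher (adjusted p = 0.0306), and passed under 7 of 15. It lost its call without any 1 array except siESRP replicate 3 and siGFP replicate 4 (adjusted p at most 0.0723 over all alternatives).

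Of 24 measured NF-kappaB target genes, 4 fell (16.7%) and 7 rose (29.2%), beside 13.4% and 15% of bright rows. Of all rows, 9.31% were called lower and 10.9% higher. The share of targets that fell was near that of bright rows. CXCL8, the neutrophil chemokine, averaged 153 ± 12.5 in siESRP and 240.1 ± 27.1 in siGFP, 1.57-fold lower (limma adjusted p = 0.00433). The chemokine CCL20 averaged 40.4 ± 6.23 in siESRP and 76.6 ± 9.64 in siGFP (adjusted p = 0.00327), with its siESRP level near background. GADD45B, a stress gene, averaged 600.2 ± 67.1 in siESRP and 1094 ± 84.5 in siGFP, 1.83-fold lower (adjusted p = 0.00141). On the other side PLAU, the urokinase plasminogen activator, averaged 2472.5 ± 120.1 in siESRP and 1120.0 ± 34.2 in siGFP, 2.21-fold higher (adjusted p = 5.95e-05). These 4 held under all 15 alternatives. The remaining calls, named after their values were seen, were CD83, lower by a log2 difference of −0.39, and 6 that were higher, with log2 differences of 0.60 for TNFAIP2, 0.59 for TNFAIP8, 0.53 for LIF, 0.35 for CFLAR, 0.33 for IER3 and 0.32 for BCL2L1. Of these, TNFAIP2 held under all 15 alternatives. CFLAR held under 8 and lost its call without any 1 of siESRP replicates 1 and 4 or siGFP replicates 1 and 2 (adjusted p at most 0.166 over all alternatives), and IER3 held under 3 and lost it without any 1 array (at most 0.306). With arrays as deposited and with the block, the calls of CD83 (adjusted p at most 0.119), BCL2L1 (at most 0.179) and LIF (at most 0.116) ended, that of LIF also with a common median. The call of TNFAIP8 ended with the block (adjusted p = 0.0798). ICAM1 and IRF1, other standard targets named after their values were seen, did not pass (adjusted p = 0.428 for ICAM1 and 0.659 for IRF1).

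**Figure D4:**
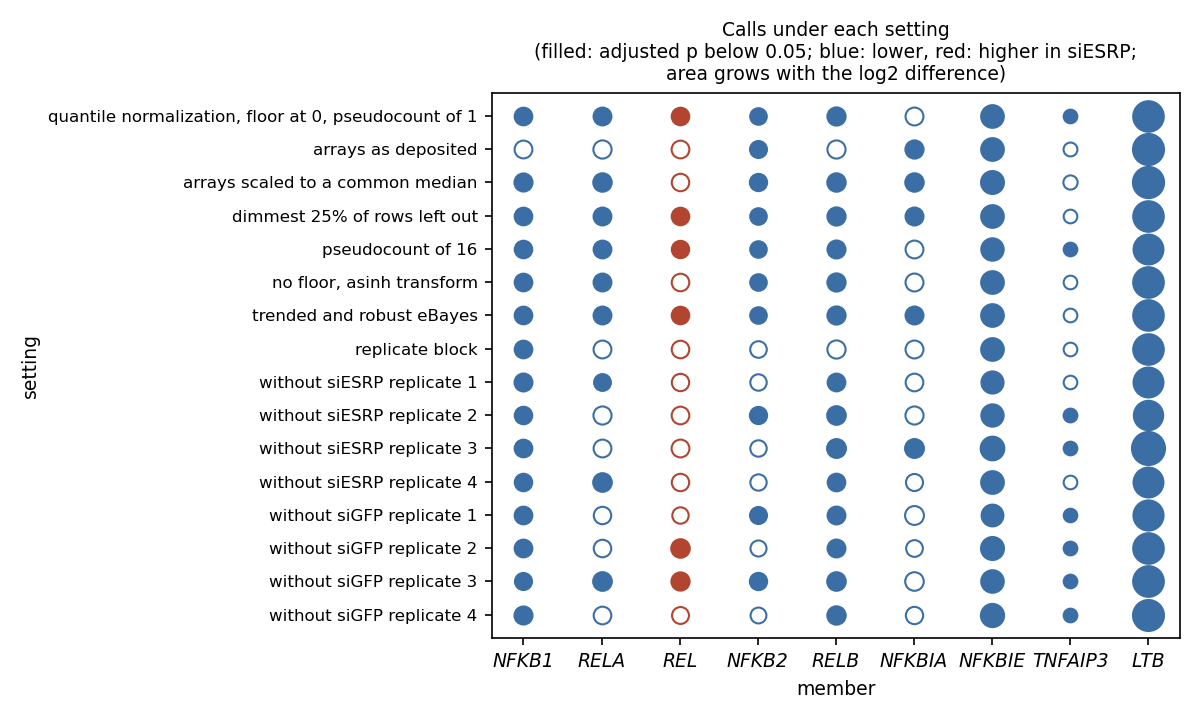
Call of each member (columns) under the reported setting (top row) and the 15 alternatives; filled circles have an adjusted p below 0.05, blue is lower and red higher in siESRP, and area grows with the size of the log2 difference. The columns of NFKBIE and LTB are filled throughout, NFKB1 is open once, and REL, NFKBIA and TNFAIP3 are open in 8 or more rows.

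The knockdown and the arrays set the frame for these values. ESRP1 averaged 581.5 ± 66.9 in siESRP and 2439 ± 169 in siGFP, and the row shared by ESRP2 and NFATC3 averaged 148 ± 27.4 in siESRP and 531 ± 33.4 in siGFP (SD, n = 4 each). The labels put the knockdown near 80% by quantitative RT-PCR. The median deposited intensity of an array lay between 247 and 269 in siESRP and between 233 and 286 in siGFP. The table holds 1 value per gene and none per exon, so the part of exon use in these values was not tested.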

How the data were processed

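RNA from 8 samples of PNT2 cells (4 siESRP, 4 siGFP, grouped by sample title) had been hybridized to Affymetrix exon arrays, from 1 µg of total RNA per sample per the labels' protocols. The authors deposited 1 table of linear intensity values; the table's whole numbers include 2.70% to 4.02% below 0 per array, and the processing before deposit is not given in the sources used here. The linear values were quantile normalized between arrays, a floor of 0 was applied, and log2(value + 1) was used for tests. limma 3.58.1 (R 4.3.3; lmFit and eBayes, two-sided, no covariate) was fitted to all 18495 rows, with Benjamini-Hochberg adjustment over all of them and a threshold of 0.05. No fold is given where a group mean is under 50.

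Names came from GEO's platform annotation, with current symbols by Entrez ID from RefSeq (14550 of 14577 rows with 1 symbol matched). Where several rows named a gene, its brightest row was used. Members, gene lists and tests were chosen with earlier results of these data known. Named genes were the members, the knockdown targets, up to 4 called genes with the smallest p from each list, marker genes and the 3 profiles most like LTB; others were named after their values were seen. Within-array ratios were compared by exact permutation; a sixth planned ratio needed BIRC3 and was not computed. Same-numbered samples did not deviate together (correlations of 0.143, 0.0887, −0.281 and −0.0119 over 12077 bright rows), so replicate numbers were not taken as pairs. Tested on simulated data for siESRP against siGFP (18495 rows), the fit found 89 of the 100 rows altered 2-fold and 61 of the 100 altered 1.5-fold, with 12 unaltered rows called. The altered rows had means of at least 100, and the noise was normal and independent between rows. They were a far smaller share than the 20.2% of rows called in the data, so recovery there may differ. Changes under 1.5-fold, as in most members, were not simulated. The number of arrays limits the precision. The alternatives were other scalings, pseudocount, floor, filter and variance model, a replicate block, and leaving out each array.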

Additional observations from a re-analysis of the deposited data

Results flagged for a closer look

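For 3 of the 18 sets of 4 values (9 members in each of the siESRP and siGFP groups), the gap between an end value and its neighbour, divided by the whole range, was above Dixon's 95% critical value. Chance alone gives this in about 1 of 20 sets, or 0.9 of 18. LTB in siESRP had a ratio of 0.853, with replicate 3 high at 296. NFKB2 in siESRP had a ratio of 0.875, with replicate 2 high at 1282. RELA in siGFP had a ratio of 0.849, with replicate 3 low at 1396. Each of these arrays lay on the side nearest to the other group, and the groups still did not overlap.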

How the results depend on the processing

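Every member kept its direction under all 15 alternatives, and LTB (log2 difference −1.74 to −1.33) and NFKBIE (−0.80 to −0.65) passed in each. Members called lower were 7 as reported, 4 with arrays as deposited, 3 with the replicate number as a block and 5 to 7 when 1 array was left out. Members called higher were 1 as reported and 0 with arrays as deposited, with a common median, with the asinh transform and with the block, and 0 to 1 when 1 array was left out. Pathway genes called lower were 11 as reported, 5 with arrays as deposited and 9 to 12 when 1 array was left out. Pathway genes called higher were 15 as reported, 7 with arrays as deposited, 9 with a common median, 6 with the block and 9 to 12 when 1 array was left out. All rows called were 3729 (1722 lower, 2007 higher), with 1673 as deposited (628 lower, 1045 higher) and 2292 with the block (946 lower). When 1 array was left out they were 2719 to 3793. The cause of these shifts was not tested. The median of all rows was −0.10 as deposited and −0.11 with a common median, so the difference of −0.17 in TNFAIP3 under a common median lay near that shift. The 5 ratios give no test of stability: with 4 arrays a group a single ratio cannot pass after adjustment over 5. With 1 array left out, only their differences were compared, without a p-value. Averaging rows of a gene was not run, since each member had 1 row.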

Other observations

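Within the siESRP group, replicate 3 held the highest value of 4 of the 9 members (RELB, NFKBIA, NFKBIE and LTB) and the lowest of REL. ESRP1 was also highest in that array, at 660.25, against 568, 499 and 599 in the other siESRP arrays, while the row shared by ESRP2 and NFATC3 was lowest there, at 109. No relation between these was tested. Within siGFP, replicate 1 held the highest value of 4 members (RELA, NFKBIE, TNFAIP3 and LTB) and the lowest of REL and NFKBIA.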
